A study of Apis mellifera with 15 samples.

Results

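Short multi-exon coding genes of the honey bee (Apis mellifera) were followed across 15 libraries of forager brain messenger RNA. They were taken as the genes with a LOC identifier whose transcripts were all protein-coding RefSeq models of at most 700 nt, with fewer than 10 transcripts and at least 1 transcript of more than 1 exon. A mean count of at least 10 was required, the 300 genes of highest mean count were kept, and the rule left out LOC406142 and LOC406144. Of the 12112 genes in the deposited count table, 483 met the conditions on structure, 363 of these also reached the mean count, and the limit on number removed 63, which left 300 genes. Structure and mean count chose the genes, so their length, exon number and abundance are given as a description with no test. The rule used no comparison between doses, but it was set with earlier results of these data known. The shift of the group between doses is therefore described and not tested.

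The control bees took sucrose solution with solvent, and the exposed bees took thiacloprid at 25 or 250 ng per bee in the same way for 72 h. All were adult worker foragers from an unpolluted site, held in PET bottles in the laboratory, and the labels give neither age nor colony. Each of the 5 replicates in a group was a separate pool of 5 brains, so p-values measure the spread between pools. Both exposed groups were compared with the same 5 control libraries, so the values at the 2 doses share those libraries and are given side by side.

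Short genes with several exons hold, in insects as in other animals, many genes for small proteins with housekeeping roles, such as ribosomal proteins and subunits of the respiratory chain, and many genes for secreted peptides. Thiacloprid belongs to the neonicotinoids, insecticides whose target is the nicotinic acetylcholine receptor, and such receptors carry much of the excitatory transmission in the insect brain. The files and the gene table used here give no product name for any of the 300 genes, so none is assigned a role.

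All 300 genes were found with the same coordinates in the RefSeq gene table of assembly Amel_HAv3.1, which lists all 300 as protein-coding. Their longest transcripts ran from 313 to 700 nt with a median of 593.5 nt. The largest class, 127 genes, had 3 exons in the transcript richest in exons. A further 86 genes had 4 exons and 64 had 2, while 19 had 5, 3 had 6 and LOC552599 had 8. A single transcript was annotated for 239 genes and 2 to 5 transcripts for the other 61. The median genomic span was 1010.5 bp (quartiles 834.0 and 1277.5 bp). The longest transcript covered a median 58.1% of the span, a lower share than the 63.1% for multi-exon coding LOC genes of over 700 to 2000 nt. The span reached 56347 bp at the long end.

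The 300 genes lay on all 16 chromosomes, with 1 on an unplaced scaffold and 1 on a sequence of unknown chromosome. Chromosome 1 held 39 of them, or 13% of the group against 12.7% of all coding genes. Chromosome 5 held 31, or 10.3% against 7.62%, and chromosome 16 held 15, or 5.0% against 2.92%. In 81 genes the span overlapped another gene, on the opposite strand in 65 and on the same strand in 22. The kit marked strand, but the sources used here do not say whether counting used it, so reads of overlapping genes could be shared. Within 5 kb of each other, 38 of the genes formed 18 neighbourhoods of at most 3 genes.

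Near the length limit, LOC113219015 and LOC410591 lay just inside at 700 nt, with log2 fold changes at 250 ng/bee of 0.35 and 0.01. Just outside lay LOC113218789 at 701 nt and LOC100577690 at 702 nt, with log2 fold changes of 0.16 and 0.24. Without replicate 1 at that dose, the library described next, the 2 inside had 0.62 (edgeR adjusted p 0.0413) and 0.14 and the 2 outside 0.09 and 0.51. At the limit set by rank of count, LOC725536 and LOC107965021 were the last kept, with mean counts of 85.9 and 80.9, and LOC102654920 and LOC727436 were the first left out, with mean counts of 80.6 and 80.0.

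Total counts per library ranged from 6834898 to 29208991, and the highest total belonged to replicate 1 at 250 ng/bee. Its description begins with another date-like string than those of the other 14 libraries, and the labels do not explain the string. Of all genes, 9560 were tested, and all 300 short genes were among them. Of the brain markers, 7 of 8 neuron genes were found, all with counts, and their sum in CPM (counts per 1e6, scaled between libraries by TMM) was 972 to 1286 in control pools, 885 to 1182 in pools of 25 ng/bee and 832 to 969 in pools of 250 ng/bee. The 250 ng/bee libraries thus all lay below the lowest control library in this sum. Markers of other tissues were present too: 8 of 8 hypopharyngeal and salivary gland genes were found, with a sum of 33908 to 268853 CPM over the 15 libraries, and 4 of 5 muscle genes with a sum of 67.8 to 535 CPM. All 6 fat body and haemolymph genes were found, with Hex70c at 0 in every library and a sum of 2967 to 4887 CPM, and 4 of 5 retina genes with a sum of 2223 to 9255 CPM. In bulk tissue, fewer cells of a type and less RNA per cell cannot be told apart. The log2 fold change at 250 ng/bee also varied with transcript length, as given below, and the part of length in these sums was not tested.

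Replicate 1 at 250 ng/bee stood apart in the short genes as well. It was the highest of the 15 libraries for 118 of the 300 genes and the lowest for 82. The SD of the log2(CPM + 1) deviation from the control mean, taken over the 300 genes, was 0.829 in this library and 0.18 to 0.42 in the other 14. In it 32 genes lay more than 1 log2 unit above the control mean and 33 more than 1 below, and no other library had more than 5 genes that far in either direction. These counts and the SD are not given for all tested genes, so whether they are particular to the short genes is not shown. The 32 genes far above had a median level of 767 FPKM (a level per transcript length and library depth), against 40.7 FPKM for the 33 far below, while the median lengths were 578.5 and 594 nt. LOC725267, for example, was at 5.58 CPM in this library and at 30.8 to 66.7 CPM in the other 14. LOC725432 was at 1222 CPM there and at 288 to 577 CPM in the others. Results at 250 ng/bee are therefore also given without this library, which is the fit within the 14 libraries that share a string; the other string holds 1 library of 1 group and gives no value of its own.

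As a group the short genes were abundant. Their median FPKM, averaged over the 15 libraries and summed over transcripts, was 77.5 against 15.1 for all tested genes, and 293 of the 300 lay above the latter. They held 32 of the 100 genes of highest FPKM. A mean over 1000 FPKM was reached by 11 of them, over 100 FPKM by 118, and 19 were under 20 FPKM. Genes that met the conditions on structure but fell below the limits on count had a median of 4.57 FPKM over 67 tested.

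LOC406093 (chromosome 6, 15024551 to 15025504, plus strand, 3 exons, 349 nt) had the highest FPKM of all genes. Its level was 76713, 257213, 256386, 181069 and 140317 FPKM in the 5 control libraries. At 25 ng/bee it was 171387, 158658, 295249.9, 198804 and 168521 FPKM. At 250 ng/bee it was 271269.8, 180001, 282603, 58403 and 143271 FPKM. The groups overlapped fully: the lowest values were those of control replicate 1 and of replicate 4 at 250 ng/bee.

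LOC113218518 (chromosome 15, 5677334 to 5677995, minus strand, 437 nt, overlapping LOC102653594) ranked 6 among all genes with a mean of 11917 FPKM. Its scaled count was 1453, 10578, 10065, 3049 and 3182 CPM in the control. At 25 ng/bee it was 6366, 4343, 7687, 5959 and 5087 CPM. At 250 ng/bee it was 12572, 4565, 7898, 979 and 5203 CPM, so the group at the higher dose spanned a wider range than the control. LOC725114 (chromosome 15, 5573219 to 5574053, plus strand, 446 nt, overlapping LOC551957) ranked 9 with a mean of 5910.4 FPKM. Its lowest library was again replicate 4 at 250 ng/bee with 525 CPM, and its highest was replicate 3 of the same group with 6361 CPM. LOC725202 lies between these genes on chromosome 15, and the 3 genes share a stretch of 105 kb, from 5573219 to 5677995, that holds 7 genes.

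The next in level were LOC725383 with a mean of 2469 FPKM, LOC413875 with 1517, LOC725884 with 1469, LOC409290 with 1441, LOC551541 with 1165, LOC551381 with 1148 and LOC726439 with 1031 FPKM. LOC725383 had the shortest longest transcript of the whole group, 313 nt, yet 5 exons on chromosome 1 from 9068210 to 9069068. LOC413875 was at 746, 625, 789, 949 and 922 CPM in the control, at 755, 677, 548, 861 and 965 CPM at 25 ng/bee, and at 2339, 914, 621, 810.4 and 996 CPM at 250 ng/bee. In LOC413875, LOC725884, LOC409290 and LOC726439 the highest of the 15 libraries was replicate 1 at 250 ng/bee, and replicate 3 at that dose was below the control mean. None of these 10 genes passed an adjusted p of 0.05 in edgeR at either dose.

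**Figure D1:**
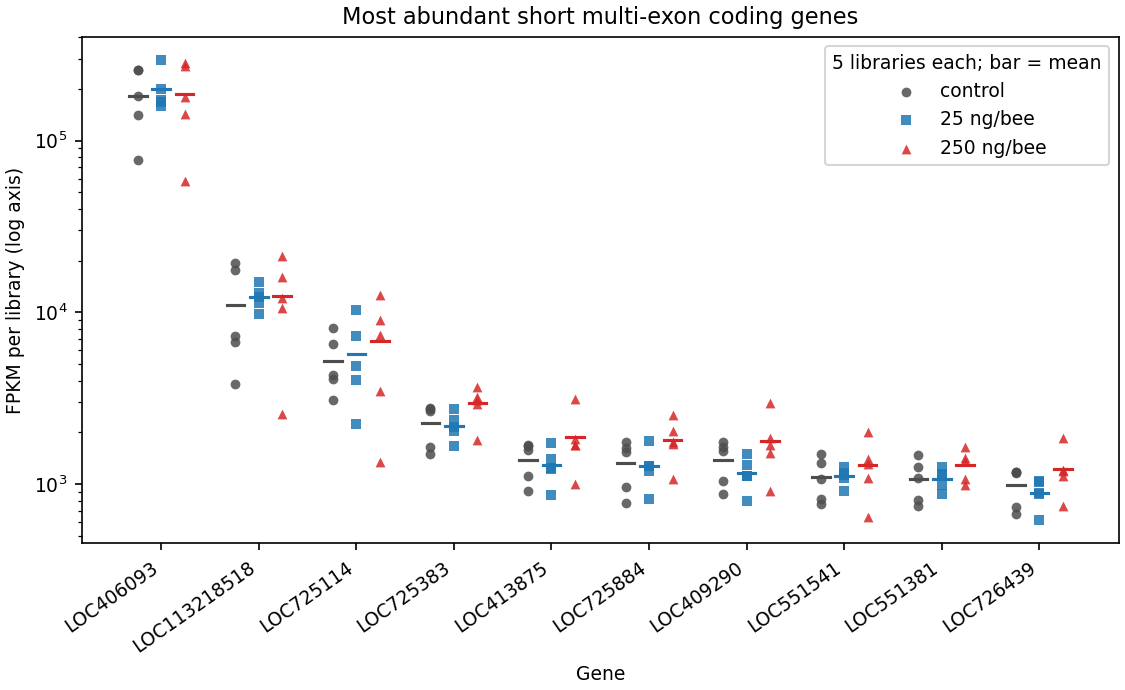
FPKM per library (log axis) of the 10 short multi-exon coding genes of highest mean FPKM; circles, squares and triangles are the 5 libraries each of the control, 25 ng/bee and 250 ng/bee, and bars are group means. LOC406093 sits more than an order of magnitude above the others, with means of 182339.7, 198524 and 187109 FPKM in the 3 groups.

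The 300 genes took 10.8 ± 2.4% of all counts in the control, 11.6 ± 1.86% at 25 ng/bee and 12.0 ± 3.37% at 250 ng/bee (SD, n = 5 each), which overlap widely. LOC406093 alone took 2.28 to 10.9% of a library. Without it the other 299 genes took 4.06 ± 0.42% in the control, 4.13 ± 0.452% at 25 ng/bee and 5.03 ± 0.537% at 250 ng/bee. The 5 control libraries lay between 3.6 and 4.52% and the 5 at 250 ng/bee between 4.25 and 5.68%, so the groups overlapped in that measure. The value without the highest member is a description, with no test.

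Some of the abundant genes followed the gland markers from library to library. Over the 15 libraries, log2 CPM of LOC406093 correlated with the log2 summed CPM of the 8 gland genes at Pearson's r = 0.94 and Spearman's rho = 0.94, each with a permutation p of 1e-05, the smallest that 100000 permutations can give (adjusted p 2.5e-05 over 5 relations). For LOC113218518 r was 0.94 and rho 0.91, with the same permutation and adjusted p-values. Without control replicate 1 and replicate 4 at 250 ng/bee, the libraries farthest from the median of the marker sum, r was 0.88 for both genes. Over the 14 libraries that share a string it was 0.94 and 0.93.

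For LOC725114 r was 0.72 and rho 0.67 (permutation, adjusted p 0.00375 and 0.0139), but r was 0.50 with a permutation p of 0.0805 without the 2 farthest libraries, so that relation rests on them. Over the 14 libraries that share a string its r was 0.69 (permutation p 0.00661). LOC725383 and LOC413875 gave r of -0.09 and 0.14, with adjusted permutation p-values of 0.75 for both, and -0.45 and -0.35 over the 14 libraries (permutation p 0.108 and 0.212). The 5 genes were those of highest FPKM, and the relations were chosen after their values were seen. The marker sum and the genes come from the same libraries and share their scaling. The part of gland tissue in the levels of LOC406093 and LOC113218518 was not tested.

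**Figure D2:**
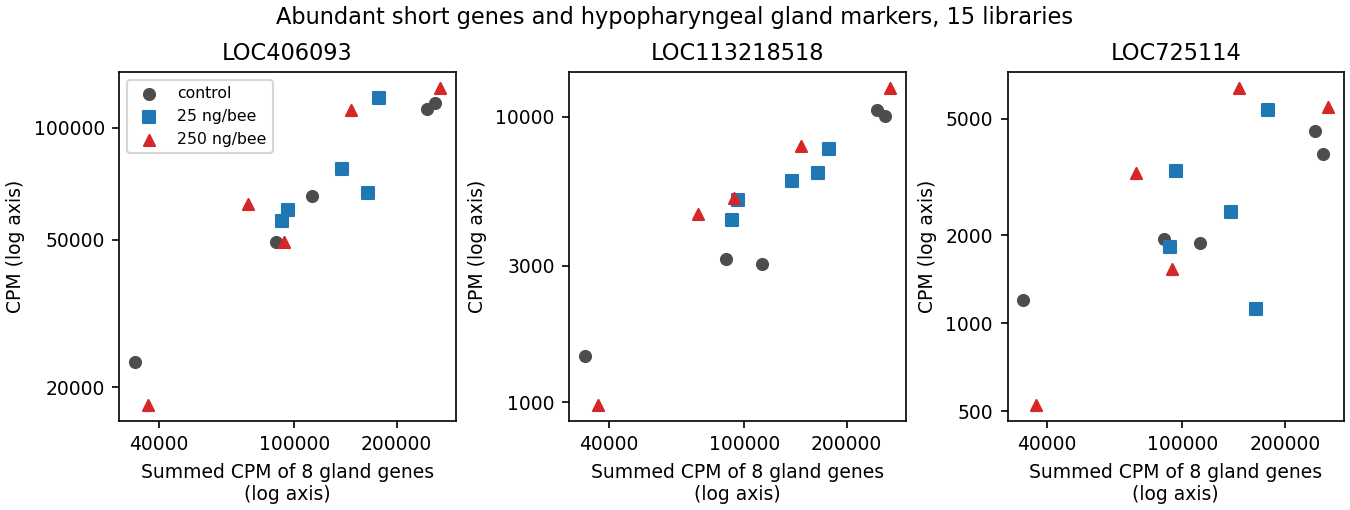
CPM of LOC406093, LOC113218518 and LOC725114 (log axis) against the summed CPM of 8 hypopharyngeal and salivary gland genes (log axis) in the 15 libraries, marked by group. The points of LOC406093 and LOC113218518 line up (r = 0.94 each) with the 3 groups mixed along the line, and those of LOC725114 scatter more (r = 0.72).

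In the median, the short genes varied between control pools nearly as much as all tested genes. The coefficient of variation of CPM over the 5 control libraries had a median of 12.6%, against 13.6% for all tested genes. It was under 20% in 261 of the short genes and over 50% in 7, and no share over all tested genes is given for these counts. The steadiest was LOC727300 at 2.55%, with 51.0, 53.4, 53.5, 53.5 and 54.7 CPM in the control.

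The most variable was LOC408608 (chromosome 1, 7780836 to 7781974, 670 nt) at 116%. It had 0, 0, 4.34, 18.5 and 12.5 CPM in the control, 0 to 4.25 CPM at 25 ng/bee, and 9.87, 1.05, 0, 43.6 and 26.4 CPM at 250 ng/bee. Every group held a library with no count and the groups overlapped. Its fitted log2 fold changes were -2.30 ± 1.32 (SE) at 25 ng/bee and 1.18 ± 1.14 at 250 ng/bee (edgeR adjusted p 0.998 and 0.707), and neither passed. In control replicate 1 LOC725202 had 209.6 CPM, and the remaining 4 control pools had 52.5 to 73.8 CPM. LOC100577527 ran from 3.49 to 12.9 CPM and LOC100578023 from 5.98 to 26.1 CPM in the control.

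The first comparison asked which genes differ after 25 ng of thiacloprid per bee. At that dose the short genes sat close to the control: 207 of 300 had a higher fitted value (69.0%, against 47.8% of all tested genes) and 93 a lower one, and the median log2 fold change was 0.07 (quartiles -0.02 and 0.15) against -0.01 for all tested genes. No short gene passed the edgeR quasi-likelihood test with Benjamini-Hochberg adjustment, and neither did any other gene (0.0% of 9560 tested). The smallest adjusted p of a short gene was 0.998. At an unadjusted p under 0.05, 4 short genes were higher (1.33%, against 1.06% of all tested genes) and 0 were lower (against 1.4%), a share near the background. DESeq2 and limma-voom gave no adjusted call at this dose either, with 5 and 17 short genes higher at an unadjusted p under 0.05. These are 1.67% in DESeq2, against 1.16% of all tested genes, and 5.67% in limma-voom, against 2.95%.

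The 6 genes with the smallest p on the higher side were LOC414039, LOC725705, LOC411618, LOC724263, LOC726802 and LOC551042, with log2 fold changes of 0.29, 0.33, 0.26, 0.21, 0.40 and 0.20 at 25 ng/bee. On the lower side they were LOC100577073, LOC408608, LOC724717, LOC552322, LOC100578023 and LOC410837, with log2 fold changes of -0.30, -2.30, -0.38, -0.19, -0.49 and -0.20. LOC725705 was at 22, 16.5, 17.8, 14.5 and 18.3 CPM in the control and at 17.7, 21.4, 22.6, 27.0 and 23.3 CPM at 25 ng/bee. LOC724717 was at 60.5, 35.9, 52.0, 46.3 and 31.5 CPM in the control and at 48.5, 48.9, 27.0, 24.8 and 24.3 CPM at 25 ng/bee. In both genes the groups overlapped. In 3 short genes every library at 25 ng/bee lay above every control library (1.0%, against 0.701% of all tested genes), namely LOC414039, LOC100577341 and LOC726872, and in 0 every library lay below (against 0.22%). LOC100577341 and LOC726872 were named after their values were seen.

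The second comparison asked the same of 250 ng per bee. Here the short genes were shifted upward as a group by a small amount, and no single one passed the test. A higher fitted value than in the control was found for 269 of 300 genes (89.7%, against 44.4% of all tested genes). The median log2 fold change was 0.25 (quartiles 0.14 and 0.34) against -0.03 for all tested genes. No short gene and no other gene passed an adjusted p of 0.05 in edgeR (0.0% of 9560), and the smallest adjusted p of a short gene was 0.277. At an unadjusted p under 0.05, 86 short genes were higher (28.7%, against 4.49% of all tested genes) and 1 was lower (0.333%, against 7.48%). Only 10 of the 300 had a log2 fold change beyond 0.5 in size, 9 of them higher.

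As a median over the 300 genes the shift was present in each pool at that dose, though not in each class of level, as given below. The median log2(CPM + 1) deviation of the 300 genes from the control mean was -0.01, -0.10, -0.07, 0.04 and 0.11 in the 5 control libraries. It was 0.00, 0.01, -0.05, 0.20 and 0.20 at 25 ng/bee. At 250 ng/bee it was 0.32, 0.27, 0.13, 0.18 and 0.31. The lowest library at 250 ng/bee thus lay just above the highest control library, and replicates 4 and 5 at 25 ng/bee lay among the 250 ng/bee libraries. The median over all tested genes stayed between -0.04 and 0.02 in the 15 libraries. The muscle marker sum was 67.8 to 408 CPM in the control (median 105), 87.7 to 284 CPM at 25 ng/bee (median 168) and 137 to 535 CPM at 250 ng/bee (median 193), with overlapping groups. The neuron marker sum also lay lower at 250 ng/bee, at up to 969 CPM against at least 972 CPM in the control, while at 25 ng/bee it overlapped the control. The log2 fold change varied with transcript length, as given below. The part of these markers and of length in the shift was not tested.

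**Figure D3:**
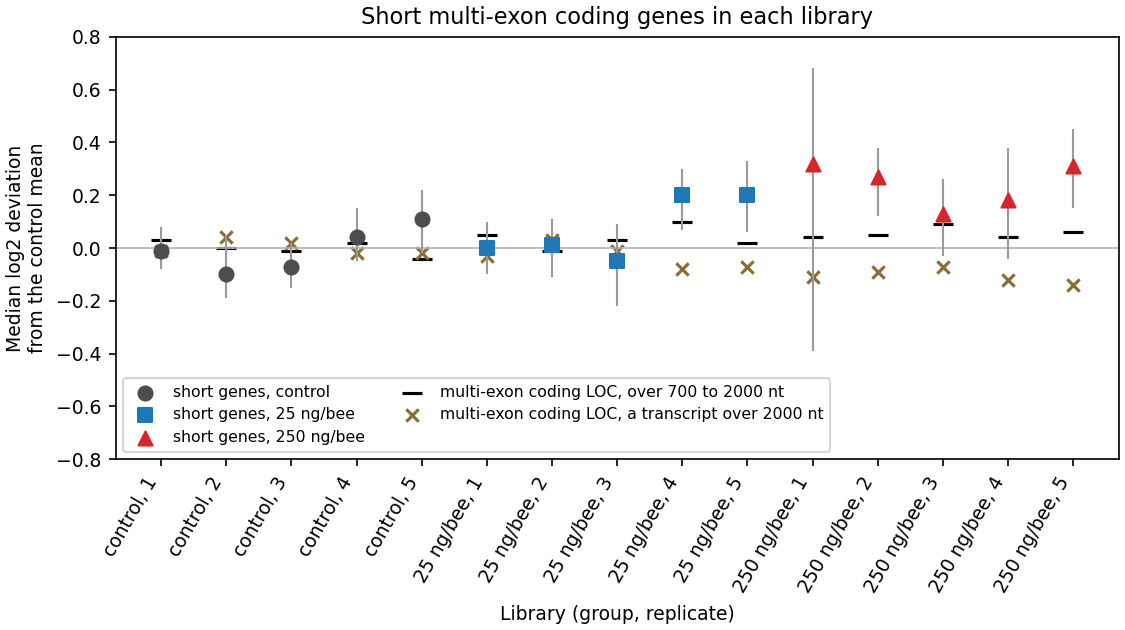
Median log2(CPM + 1) deviation from the control mean in each of the 15 libraries for the 300 short genes (filled symbols, with grey lines from the lower to the upper quartile), for multi-exon coding LOC genes of over 700 to 2000 nt (dashes) and for those with a transcript over 2000 nt (crosses). The short genes reach 0.13 to 0.32 at 250 ng/bee, where the longest class lies at -0.07 to -0.14, and the grey line is widest in replicate 1 at 250 ng/bee.

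LOC414039 (chromosome 1, 18546487 to 18547386, plus strand, 3 exons, 615 nt) had the smallest p. It was at 14.1, 11.6, 14.2, 11.2 and 12.1 CPM in the control. At 25 ng/bee it was at 14.7, 15.2, 15.6, 17 and 15 CPM. At 250 ng/bee it was at 18.4, 17.2, 19.8, 17.8 and 18.3 CPM. The 3 groups did not overlap, with the order control, 25 and 250 ng/bee. Its log2 fold change was 0.29 ± 0.11 (SE) at 25 ng/bee and 0.53 ± 0.11 at 250 ng/bee, with edgeR adjusted p of 0.998 and 0.277. Its span overlaps LOC550996.

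LOC724669 (chromosome 2, 75950 to 79183, 4 exons, overlapping LOC100578468) was at 48.3, 52.9, 51.7, 52.7 and 57.1 CPM in the control and at 85.7, 73.9, 69.5, 56.9 and 86.8 CPM at 250 ng/bee, where replicate 4 lay within the control range. Its log2 fold change was 0.51 ± 0.11 (edgeR adjusted p 0.277). LOC100578551 (chromosome 1, 22776969 to 22777477, 2 exons, overlapping LOC100577533) was at 37.7, 31.3, 32.0, 41.6 and 44.2 CPM in the control and at 61.7, 50.4, 50.9, 51.2 and 48.5 CPM at 250 ng/bee, with no overlap and a log2 fold change of 0.49 ± 0.11. LOC552599 (chromosome 3, 1951823 to 1953055), the gene with 8 exons, was at 52.4, 44.6, 48.1, 48.0 and 46.5 CPM in the control and at 63.4, 53.8, 63.1, 58.6 and 62.0 CPM at 250 ng/bee. These groups did not overlap either, and its log2 fold change was 0.33 ± 0.08.

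LOC551861 (chromosome 15, 5194047 to 5195027, 419 nt), the most abundant of the 6 at a mean of 331 FPKM, was at 133, 113, 102, 122 and 159.9 CPM in the control and at 199.6, 175, 143, 168 and 201 CPM at 250 ng/bee. Replicate 3 at that dose lay within the control range, and the log2 fold change was 0.49 ± 0.13. LOC113218590 (chromosome 2, 8161875 to 8162799) was at 69.5, 59.1, 54.9, 59.6 and 64.6 CPM in the control and at 92.0, 75.3, 80.2, 75.8 and 80.7 CPM at 250 ng/bee, with no overlap and a log2 fold change of 0.39 ± 0.10. At 25 ng/bee its log2 fold change was 0.02 ± 0.10. The edgeR adjusted p was 0.277 at 250 ng/bee for each of these 6 genes.

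**Figure D4:**
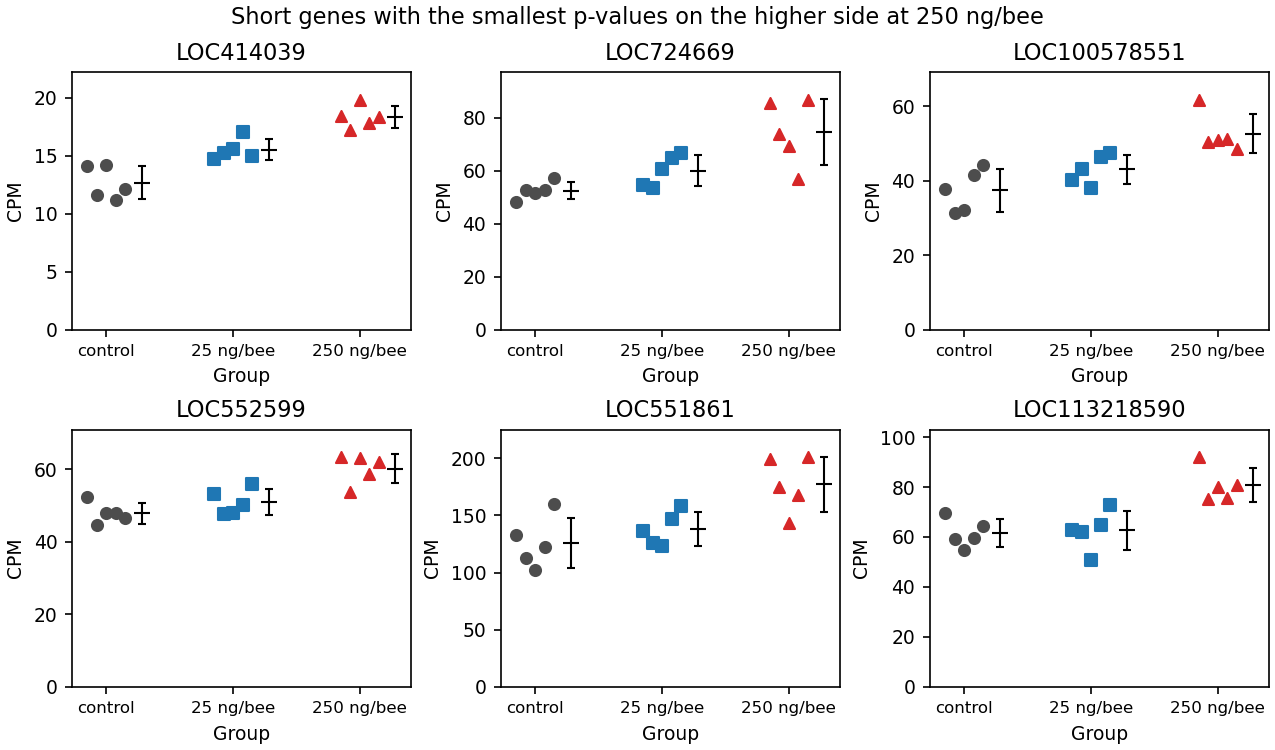
CPM in each of 5 libraries per group, with mean and SD beside the points, for the 6 short genes with the smallest edgeR p on the higher side at 250 ng/bee. In LOC414039, LOC100578551, LOC552599 and LOC113218590 every 250 ng/bee library lies above every control library, and in LOC724669 and LOC551861 a single one lies within the control range.

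On the lower side the 6 genes with the smallest p were LOC724717, LOC725747, LOC724936, LOC412426, LOC113218772 and LOC410837, with log2 fold changes of -0.70, -0.23, -0.22, -0.18, -0.28 and -0.24. Without replicate 1 at that dose these were -0.52, -0.28, -0.21, -0.03, -0.10 and -0.11, so the last 3 lost more than 1.5 times in size. LOC724717 (chromosome 4, 7602682 to 7606627, 2 exons) was at 16.1, 36.5, 15.4, 42.4 and 28.9 CPM at 250 ng/bee, so all 5 lay below its control mean of 45.2 CPM while the ranges overlapped (log2 fold change -0.70 ± 0.30, edgeR adjusted p 0.389). Its span overlaps LOC100577492 and a transfer RNA gene. LOC412426 was at 19.2 CPM in replicate 1 and at 28.7 to 33.1 CPM in the other 4 libraries at 250 ng/bee, against 30.1 to 35.4 CPM in the control. LOC113218772 was at 8.15 CPM in replicate 1 and at 12.9 to 21.9 CPM in the other 4, against 14.2 to 20.4 CPM.

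In 15 of the 300 genes every library at 250 ng/bee lay above every control library (5.0%, against 0.973% of all tested genes). In 0 every library lay below (against 1.78%). The 15 include 5 of those named above, LOC414039, LOC100578551, LOC552599, LOC113218590 and LOC724263. LOC724263 (chromosome 7, 3246693 to 3247703, 2 exons) was at 61.5 to 71.6 CPM in control pools, at 65.8 to 91.7 CPM with 25 ng/bee and at 74.3 to 89.4 CPM with 250 ng/bee.

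Without replicate 1 at 250 ng/bee the median log2 fold change of the 300 genes was 0.25 again, and single genes passed the test. With 14 libraries, edgeR called 22 short genes at an adjusted p under 0.05, all higher (7.33%, against 2.2% of 9617 tested genes called higher), and 0 lower (against 0.374%). Their log2 fold changes ran from 0.33 to 0.67, and in 21 of the 22 each of the remaining 4 libraries at 250 ng/bee lay above every control library. The same libraries made the calls, so this describes the called genes and adds no support. In 14 of the 22 the library left out was the lowest of all 15, and in 8 it lay above the control mean. At an unadjusted p under 0.05, 135 short genes were higher without it (45%, against 12.8% of the tested genes of that fit), and 86 with it.

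Of the 6 genes with the smallest p, LOC414039 had an edgeR adjusted p of 0.0267 without that library, LOC724669 of 0.0405, LOC100578551 and LOC552599 of 0.0413, LOC113218590 of 0.059 and LOC551861 of 0.0665. LOC107965827 (chromosome 9, 967125 to 968909) showed the other pattern: it was at 42.4 to 54.6 CPM in the control and at 63.4, 64.4, 82.1 and 63.5 CPM in replicates 2 to 5 at 250 ng/bee, but at 10.6 CPM in replicate 1. Its log2 fold change was 0.25 (edgeR adjusted p 0.792) with replicate 1 and 0.55 (0.0326) without it. LOC725267 had a log2 fold change of 0.31 with replicate 1 and 0.63 without it (edgeR adjusted p 0.79 and 0.0457). LOC727300, the steadiest gene in the control, was at 53.3, 66.4, 69.4, 68.9 and 63.0 CPM at 250 ng/bee, and its log2 fold change was 0.27 (edgeR adjusted p 0.299) with and 0.36 (0.0267) without replicate 1. LOC107965827, LOC725267 and LOC727300 were picked after their values were seen.

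Other tests on all 15 libraries also made calls. DESeq2 called 9 short genes (3.0%, against 0.418% of all tested genes called higher and 0.146% called lower), all higher. It gave some genes no adjusted p, LOC414039 among them, and these could not be called. The shares still count them, and how many of all tested genes this covers is not given. Limma-voom with sample quality weights, which gives less weight to libraries far from their group, called 33 (11%, against 2.0% higher and 2.08% lower), again all higher. In all, 3 short genes were called by DESeq2, by limma-voom and by edgeR without replicate 1 at 250 ng/bee. They were LOC724669, LOC100578551 and LOC100576457, the last at 21.7 to 29.3 CPM in the control and at 31.6 to 35.3 CPM at 250 ng/bee. LOC414039 was called by limma-voom (adjusted p 0.0312) and by edgeR without replicate 1 (adjusted p 0.0267), but DESeq2 gave it no adjusted p. No share over all tested genes is given for the overlap of the tests.

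The third comparison set the doses against each other. The median log2 fold change of the short genes from 25 to 250 ng/bee was 0.16 (quartiles 0.04 and 0.27), against -0.02 for all tested genes, and 239 of 300 were higher at the higher dose (79.7%, against 44.1% of all tested genes). No gene passed an adjusted p of 0.05 in edgeR (0.0%), and the smallest adjusted p of a short gene was 0.934. At an unadjusted p under 0.05, 53 short genes were higher (17.7%, against 2.42% of all tested genes) and 0 lower (against 2.57%). That count moved with single libraries: it was 21, 23 and 23 without replicates 1, 2 and 3 at 25 ng/bee, 84 without replicate 4 at that dose and 92 without replicate 3 at 250 ng/bee. The shares of all tested genes in those fits are not given, so whether the movement is particular to the short genes is not shown. In the test of any difference among the 3 groups no gene passed (0.0%), and 63 short genes had an unadjusted p under 0.05 (21.0%, against 6.75%).

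Across all genes the median log2 fold change at 250 ng/bee fell with transcript length. Over all 9560 tested genes, grouped by the length of their transcripts, the median log2 fold change was 0.19 for lengths up to 400 nt, 0.25 from 400 to 500, 0.22 from 500 to 600, 0.20 from 600 to 700 and 0.14 from 700 to 1000 nt. It was 0.07 from 1000 to 1500 nt, -0.01 from 1500 to 2000, -0.07 from 2000 to 3000, -0.13 from 3000 to 5000 and -0.14 above 5000 nt. The short multi-exon coding genes gave 0.36, 0.27, 0.24 and 0.23 in the 4 shortest classes, with 10, 45, 112 and 133 genes. These are counted among the 75, 99, 178 and 229 genes of the same classes above. The other genes of those classes gave 0.17, 0.21, 0.13 and 0.09, less than the short multi-exon coding genes in each, a difference that was not tested. Without replicate 1 at 250 ng/bee the other genes gave 0.11, 0.22, 0.05 and 0.11. At 25 ng/bee the same medians over all genes ran from 0.06 between 400 and 1000 nt to -0.05 above 5000 nt. Without replicate 1 at 250 ng/bee they ran from 0.26 between 400 and 500 nt to -0.11 above 5000 nt.

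**Figure D5:**
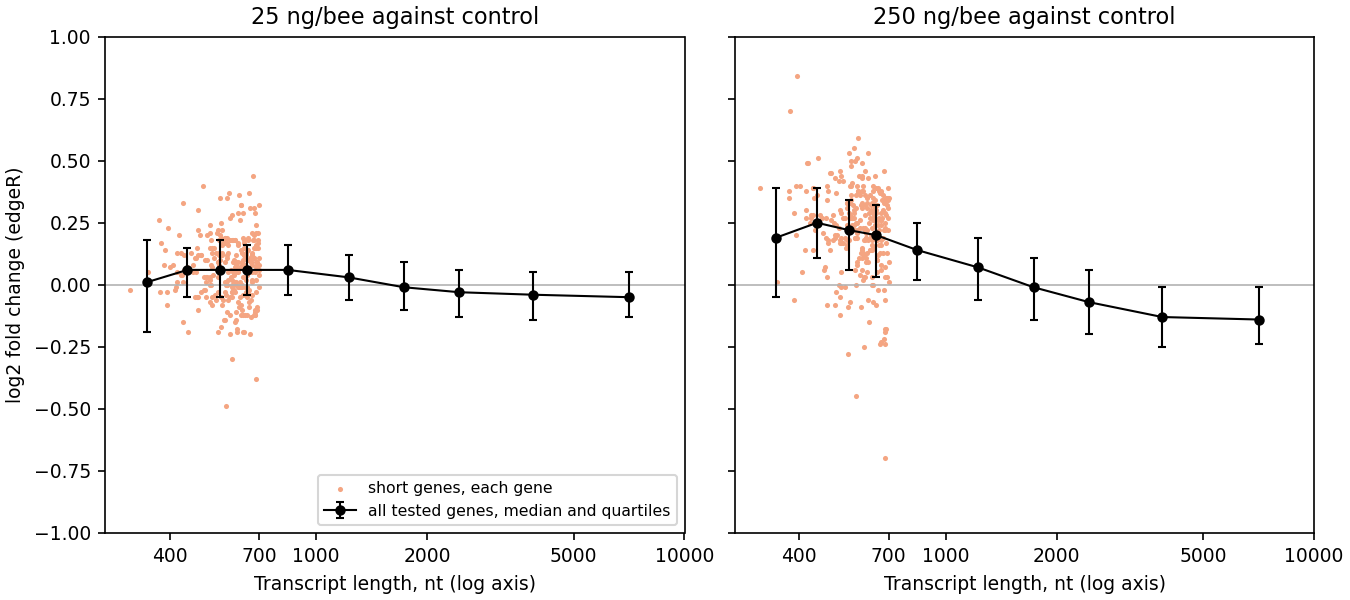
Log2 fold change (edgeR) at 25 and 250 ng/bee against the control by transcript length (log axis): black points are the median and bars the quartiles of all tested genes in 10 length classes, and small points are the short genes at the length of their longest transcript. At 250 ng/bee the medians fall from 0.25 between 400 and 500 nt to -0.14 above 5000 nt; LOC408608, at -2.30 and 1.18, lies outside the axis.

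When a smooth trend of counts on gene length was taken out of each library, the median log2 fold change of the short genes at 250 ng/bee was 0.03, and 11 were higher and 8 lower at an unadjusted p under 0.05 in edgeR. The 11 are 3.67%, against 3.0% of all tested genes, and the 8 are 2.67%, against 3.73%, both near the background. By construction that correction removes any difference that follows length, whatever its source. Of the 86 genes higher before it, 11 had an unadjusted p under 0.05 after it. With the correction and without replicate 1 at 250 ng/bee, 1 short gene passed an adjusted p of 0.05 in edgeR (0.333%, against 0.645% of the tested genes). The 6 genes with the smallest p on the higher side, LOC414039, LOC724669, LOC100578551, LOC552599, LOC551861 and LOC113218590, had log2 fold changes of 0.33, 0.29, 0.24, 0.13, 0.24 and 0.20 with the correction alone, and edgeR adjusted p-values of 0.632 to 0.784.

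Other classes of genes, short and longer, gave smaller medians at 250 ng/bee. Single-exon coding genes of at most 700 nt had a median log2 fold change of 0.11 over 35 tested genes. Multi-exon coding genes of that length that carry a symbol had 0.06 over 32. Genes that met the conditions on structure but fell below the limits on count had 0.15 over 67. Multi-exon coding LOC genes of over 700 to 2000 nt had 0.06 over 3122, and those with a transcript over 2000 nt had -0.11 over 4312. The classes also differ in level: in the same order the median FPKM of their tested genes was 19.9, 196, 4.57, 26.5 and 11.5, against 77.5 for the 300. The differences between classes in fold change were not tested, nor was the part of level in them.

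Within the 300 genes the shift at 250 ng/bee differed little with structure. The median log2 fold change was 0.27 in genes with 2 exons, 0.26 with 3, 0.24 with 4 and 0.24 with 5 or more. It was 0.24 for genes with 1 transcript and 0.27 for those with several. Split by mean FPKM into 4 classes of 75 genes, the medians were 0.22, 0.22, 0.26 and 0.29 from the lowest to the highest class at 250 ng/bee and 0.10, 0.09, 0.10 and -0.02 at 25 ng/bee. In replicate 1 at 250 ng/bee the median deviation from the control mean was 0.01, 0.11, 0.26 and 0.80 over the same classes. Replicate 2 at that dose gave 0.23, 0.30, 0.31 and 0.23, and replicate 3 gave 0.21, 0.16, 0.19 and -0.06. Replicate 4 gave 0.25, 0.19, 0.26 and 0.06, and replicate 5 gave 0.28, 0.35, 0.34 and 0.29. The highest class thus lay far above the other classes only in replicate 1, and near the control mean in replicates 3 and 4.

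Neighbouring genes did not always have like values. LOC726439 and LOC726480 lie within 5 kb on chromosome 5 and on the same strand. In replicate 1 at 250 ng/bee LOC726439 was at 1466 CPM, its highest of 15 libraries, and LOC726480 at 36.8 CPM, its lowest. LOC113218590 and LOC727300, 178 bp apart on chromosome 2, had log2 fold changes of 0.39 ± 0.10 and 0.27 ± 0.08 at 250 ng/bee (edgeR adjusted p 0.277 and 0.299). LOC726782, LOC726789 and LOC726802 on chromosome 12 had 0.06 ± 0.12, 0.45 ± 0.21 and 0.18 ± 0.19. LOC552597 and LOC552610 on chromosome 16 had 0.40 ± 0.18 and 0.26 ± 0.12. Without replicate 1 at 250 ng/bee the 3 genes on chromosome 12 had log2 fold changes of -0.06, 0.18 and 0.28, so the order of the latter 2 turned. The pair on chromosome 16 had 0.38 and 0.15, and LOC113218590 and LOC727300 both had 0.36.

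Of the 61 genes with several transcripts, the major one took a median 83.6% of the gene's FPKM in the control, over 90% in 22 genes and under 60% in 12. These shares are the authors' estimates of how reads divide among overlapping models and can flip between libraries. In LOC409552 the major transcript took 55.6 to 83.1% in 14 libraries and 2.5% in replicate 1 at 250 ng/bee. In LOC726295 it took 8.15% in replicate 5 at 25 ng/bee and 95.0 to 100% elsewhere. In LOC724896 the share was 0 or 100% in all but 1 of the 15 libraries. In LOC413875 it stayed between 78.1 and 96.6%. The median absolute difference of the share between 250 ng/bee and the control was 4.1 percentage points over the 61 genes. These genes were picked after their shares were seen, and no test was made.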

How the data were processed

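RNA of 15 brain pools was sequenced from poly-A stranded libraries, per the labels' protocols. Tools listed in the submitters' processing notes, without roles, are StringTie 2.0.2, HISAT2 2.1.0, DESeq2 1.22.2, Trimmomatic 0.39 and SAMtools 1.7; the sources used here do not give the build or whether strand was used. The authors deposited estimated counts for 12112 genes, which match, to within 1 count in 100% of genes, coverage times transcript length divided by 75 nt reads, and were used rounded to whole numbers. The deposited transcript tables give FPKM and coverage (a signal) per transcript, per the file headers; FPKM was summed over a gene's transcripts, and coverage served only that check. Length and exon number come from those tables.

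Groups and replicate numbers came from titles. No library repeated another (smallest chi-square per degree of freedom within a group, 19.6). The main test was edgeR 4.0.16 (R 4.3.3), quasi-likelihood F, two-sided, with TMM scaling, filterByExpr, no term beside group, and Benjamini-Hochberg adjustment over 9560 genes holding 99.96% of counts; the threshold was an adjusted p of 0.05, and the common biological coefficient of variation was 0.219. The script was tested on simulated data. CPM are TMM-scaled; deviations use log2(CPM + 1). Correlations used 100000 permutations, two-sided.

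The members, lists and rules were chosen with earlier results of these data known. Named genes are the 10 of highest mean FPKM, the 6 with the smallest p in each direction at each dose, any called gene (the 10 with the largest change if more than 20), genes at the edge of the rule, and neighbours within 5 kb in the 6 neighbourhoods of highest mean count. A planned search for near-identical proteins was not made, so reads shared between paralogs were not examined. Alternatives were DESeq2 1.42.0, limma-voom with sample weights (limma 3.58.1), DESeq2 size factors, no low-count filter, a replicate block, a length correction, other length limits of 600 and 800 nt, and leaving out each library. The length correction without replicate 1 at 250 ng/bee, and thinning that library to 9924048 counts, were added after seeing the data.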

Additional observations from a re-analysis of the deposited data

Results flagged for a closer look

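In 14 of 138 groups of 5 libraries examined, 1 library stood farther from the other 4 than Dixon's critical value of 0.71 allows, and chance gives about 1 in 20 such groups. Replicate 1 at 250 ng/bee accounts for 11 of the 14. Its SD of the log2 deviation over the 300 genes was 0.829, the highest of its group. In it LOC413875 was at 2339 CPM, LOC409290 at 2187, LOC726439 at 1466, LOC413884 at 1132, LOC724868 at 1054, LOC552610 at 378, LOC552322 at 172, LOC100578551 at 61.7 and LOC726782 at 48.0 CPM, each the highest of the 5 libraries at that dose. LOC726480 was at 36.8 CPM there, the lowest of its group. In the control, LOC725202 was at 209.6 CPM in replicate 1, LOC726802 at 9.6 CPM in replicate 2 and LOC551042 at 123 CPM in replicate 5, each above the other 4 control libraries.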

How the results depend on the processing

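The median log2 fold change of the short genes at 250 ng/bee stayed between 0.22 and 0.28 when any 1 library was left out, and was 0.03 with the length correction, alone or without replicate 1 at 250 ng/bee; at 25 ng/bee it stayed between 0.04 and 0.10. Genes called at 250 ng/bee numbered 0 in edgeR on all libraries, 54 in DESeq2, 390 in limma-voom, 0 to 248 when 1 library was left out and 62 with the length correction without replicate 1; short genes called numbered 0, 9, 33, 0 to 22 and 1. The 248 and 22 were without replicate 1 at 250 ng/bee, and 2 genes, none of them short, were called without replicate 3. The share of counts was 4.06, 4.13 and 5.03% in the control, 25 and 250 ng/bee without the gene of highest count, and 5.05, 5.12 and 6.25% without the 20 genes of highest count in the total. Short genes higher at an unadjusted p under 0.05 at 250 ng/bee numbered 86 (28.7%, against 4.49% of all tested genes), and 11 with the length correction (3.67%, against 3.0%). They numbered 37 with it and without replicate 1, 148 in limma-voom and 51 with the limit at 600 nt. At 25 ng/bee the count of 4 ran from 1 to 17 when 1 library was left out, the 17 without replicate 1 at 250 ng/bee. Apart from the 86, 11 and 4, no share over all tested genes is given for these counts. They cannot be read against a background.

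Fold changes at 250 ng/bee that reversed sign belonged to genes that edgeR did not call. LOC406093 had -0.05 with the replicate block, -0.30 with the length correction, -0.34 in limma-voom and -0.51 with the length correction without replicate 1, and LOC113218518 had -0.18, -0.21 and -0.52 under the last 3. LOC725114 had -0.15, LOC726782 -0.03 and LOC113218789 -0.61 in limma-voom, and LOC410591 had -0.01 with the replicate block. With the length correction LOC551541 had -0.01, LOC726802 -0.06, LOC726480 and LOC726782 -0.14, LOC725170 -0.05 and LOC410591 -0.17, and LOC113218590 had -0.04 at 25 ng/bee, also without replicate 1. With the length correction without replicate 1, LOC725114 had -0.07, LOC725383 -0.01, LOC413875 -0.15, LOC409290 and LOC726439 -0.18, LOC413884 -0.22, LOC725170 -0.07, LOC724868 -0.21, LOC726782 -0.25, LOC726789, LOC552610 and LOC113218789 -0.06, and LOC410591 -0.05. When 1 library was left out, LOC406093 ran from -0.26 to 0.27, LOC113218518 from -0.26 to 0.52, LOC100577073 from -0.22 to 0.03 LOC552322 from -0.21 to 0.02, LOC726782 from -0.06 to 0.11, LOC410591 from -0.09 to 0.14, LOC113218789 from -0.07 to 0.57, LOC413884 from -0.01 to 0.41 and LOC724868 from -0.01 to 0.47, and LOC113218590 at 25 ng/bee from -0.03 to 0.09. Apart from the fewer libraries, the cause was not tested.

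The labels do not say that a replicate number marks a shared batch. Over 15 pairs of same-numbered libraries the correlation of deviations was -0.077 to 0.325, above 0.1 in 6 pairs, with a mean of 0.0865. Other pairs ran from -0.279 to 0.321, with a mean of -0.0214. The difference comes from the data and not the design, and it was not tested. With the replicate block no gene was called at either dose, and 96 short genes were higher at an unadjusted p under 0.05 at 250 ng/bee. The share of all tested genes in that fit is not given, so the 96 cannot be read against a background. Limits are 5 pools a group, 1 library of other depth and no strand setting for overlapping genes.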
